A study of Mus musculus with 24 samples.

Results

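The effect of 1,25(OH)2D3 (VD3), the hormone form of vitamin D, was compared between mouse marrow-derived mesenchymal stem cells (MSC) on day 7 of osteogenic differentiation and the same cells at day 0, before differentiation. MSC are stromal precursors, able to become osteoblasts or adipocytes. The measure was an interaction: the VD3 minus vehicle difference on osteogenic day 7, minus the VD3 minus vehicle difference at day 0, both on log2(RPKM + 1). RPKM scales reads by transcript length and by the mapped reads of the library. The scale understates changes of genes with low values. It used 12 of the 24 libraries of the study, 3 in each of 4 groups. These were osteogenic day 7 with VD3, osteogenic day 7 with vehicle, day 0 with VD3 and day 0 with vehicle. The other 12 libraries (osteogenic day 15 and adipogenic day 7) entered the same model, where they helped to set the spread. A gene is described here when its mean reached 10 RPKM in at least 1 of the 4 groups, which 6810 of 21097 tested genes did, and called when the interaction had an adjusted p under 0.05.

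All cells came from cryopreserved stocks kept to at most 10 passages and were grown in MEM alpha with serum. Day 0 libraries had no differentiation medium. Osteogenic medium contained 10 mM beta-glycerophosphate and 50 µg/mL ascorbic acid and was applied to confluent cells for 7 days. VD3 was given at 100 nM for 24 hours before RNA harvest, and the vehicle was ethanol. The labels name no strain, sex or age, and do not say whether replicates were separate cultures, so a p-value refers to the spread among libraries, which may be technical. Undifferentiated cells were sampled at day 0 alone, and an effect of the medium cannot be told apart from one of time in culture. RNA was taken from bulk cultures, in which fewer cells of a type and less RNA per cell cannot be told apart.

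VD3 acts through the vitamin D receptor (Vdr), a nuclear receptor that binds DNA as a pair with a retinoid X receptor, typically at repeats of a hexamer such as AGGTCA. In cells of the osteoblast lineage it is known to raise its own inactivating enzyme Cyp24a1, the matrix protein Spp1 (osteopontin) and the osteoclast-inducing cytokine Tnfsf11 (RANKL). It is also known to slow proliferation. Osteogenic medium supplies the phosphate source and the ascorbic acid that collagen maturation and mineral deposition need.

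The estimated depth was 7.12 to 46.7 M reads in the 12 libraries, at which 3 reads on 1 kilobase of transcript amount to between 0.0642 and 0.421 RPKM. Libraries of a group correlated at 0.926 to 0.989. Of the 6 day 0 libraries, 5 stood apart by signal over 1491 receptor genes of smell and taste, which are normally silent outside sensory tissue. The median of these genes was 3.38 to 4.93 RPKM in those 5 libraries, at 7.12 to 11.0 M reads, 0.455 RPKM in day 0 VD3 replicate 2 and 0.208 to 0.841 RPKM on osteogenic day 7. By group it was 0.490 ± 0.307 RPKM on osteogenic day 7 with VD3, 0.334 ± 0.110 with vehicle there, 2.76 ± 2.07 at day 0 with VD3 and 4.20 ± 0.714 at day 0 with vehicle (SD, n = 3 each). The mean of this receptor background was thus lower at day 0 with VD3, where replicate 2 had 0.455 RPKM and replicates 1 and 3 had 4.45 and 3.38. The 1468 receptor genes tested had a median interaction of 0.77, against 0.32 over all tested genes. The limit of 10 RPKM in at least 1 of the 4 groups lies above this background, and over genes past that limit the median interaction was 0.0005. Summed over 10 stromal markers, the libraries held 1257 to 1556 RPKM on osteogenic day 7 with VD3, 1445 to 1476 with vehicle, 905 to 1012 at day 0 with VD3 and 1469 to 1489 with vehicle, and 1 to 3 of these markers averaged under 1 RPKM in a group. No marker of blood cells (10), endothelial cells (6), chondrocytes (6) or skeletal muscle (6) reached 10 RPKM in a group mean, and 0 of them were called. Their sums were at most 21.1, 8.61, 10.9 and 7.10 RPKM, with the highest blood, endothelial and muscle sums in day 0 vehicle libraries. The list of abundant noncoding RNAs, which reflects depletion and RNA quality, summed to 109664 to 126635 RPKM on osteogenic day 7 with VD3 and 139858 to 155502 with vehicle. At day 0 they summed to 188956 to 231202 RPKM with VD3 and 193800 to 220053 with vehicle, and the part of these lists in the results was not tested.

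The VD3 effect differed between the states for 315 of 6810 genes of at least 10 RPKM, or 4.63% (limma, Benjamini-Hochberg adjusted p under 0.05 over 21097 tested genes). It was higher on osteogenic day 7 for 172 genes (2.53%) and lower for 143 (2.1%), and reached 1 log2 unit or more for 53 and 11 of them. "Higher" here covers a stronger rise on osteogenic day 7, a weaker fall there, or a rise there against a fall at day 0. By sign alone, 78 of the 172 genes fell in both states, 74 had opposite directions and 19 rose in both. By call, 102 of the 172 genes (59.3%) fell at day 0 and were not called on osteogenic day 7, and 26 fell in both states. Another 25 rose on osteogenic day 7 with no call at day 0, and 10 rose in both. Likewise 88 of the 143 lower genes (61.5%) rose at day 0 with no call on osteogenic day 7, 33 rose in both and 16 fell on osteogenic day 7 only by call. The median VD3 effect of the 172 genes was 0.06 on osteogenic day 7 and -0.71 at day 0, and that of the 143 genes was 0.04 and 0.71. A gap between these medians follows from the choice of genes, which was by the difference of the same effects.

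Among genes of at least 10 RPKM, VD3 raised 424 (6.23%) and lowered 412 (6.05%) on osteogenic day 7, and raised 720 (10.6%) and lowered 744 (10.9%) at day 0. Over all tested genes 539 interactions were called (2.55%), 391 higher (1.85%) and 148 lower (0.702%), and 219 of the 224 called genes under 10 RPKM were higher. Without day 0 VD3 replicate 2, the one day 0 library with a low receptor background, 118 higher and 64 lower genes of at least 10 RPKM were called, and the median over all tested genes was 0.15. Without day 0 VD3 replicate 1, 325 were higher and 219 lower. Each of 6 other single libraries lowered a count by more than 1.5 times when left out: day 0 vehicle replicates 1 (89 lower), 2 (110 higher, 84 lower) and 3 (91 lower), osteogenic day 7 vehicle replicates 1 (78 lower) and 2 (105 higher, 77 lower), and osteogenic day 7 VD3 replicate 1 (84 lower). A fit of the 12 compared libraries alone, without the other 12 to help set the spread, called 82 higher and 48 lower. After the receptor median was subtracted from every gene, 94 were higher and 233 lower, a higher share of 28.7% in place of 54.6%. At the limit itself, Galm reached 10.05 RPKM in its highest group and Phka2, just outside, 9.86. Of the 315 called genes, 23 higher and 7 lower passed the limit in 1 group only, beside 642 of all 6810 genes past it.

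**Figure D1:**
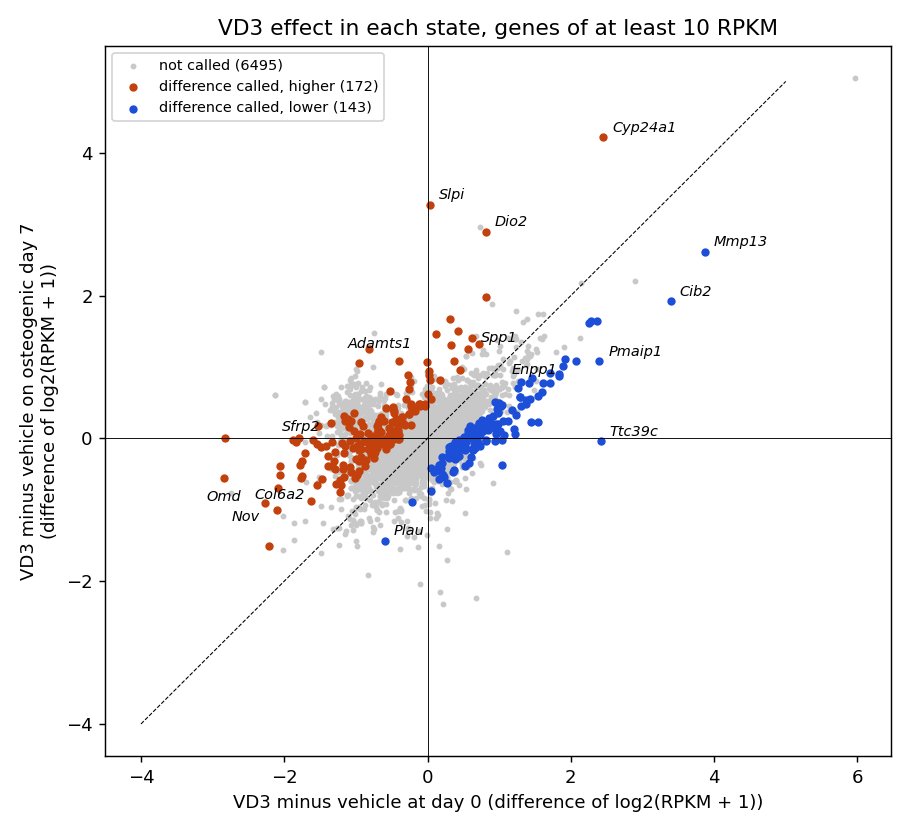
VD3 minus vehicle difference on osteogenic day 7 (vertical) against that at day 0 (horizontal), both as differences of log2(RPKM + 1), for 6810 genes of at least 10 RPKM; the dashed line marks equal effects. The 172 genes called higher lie above the line, many of them left of 0 and near 0 on the vertical axis, and the 143 called lower lie below it.

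A group of genes was induced by VD3 on osteogenic day 7, and less or not at all at day 0. Slpi, a secreted inhibitor of neutrophil elastase, had the largest interaction of the named genes. It had 14.1, 9.33 and 9.70 RPKM with VD3 on osteogenic day 7, against 0.335, 0 and 0.389 RPKM with vehicle. In day 0 cells its values were 0.726, 0.677 and 1.63 RPKM with VD3 and 0.404, 2.11 and 0.641 RPKM with vehicle. Only the day 7 groups were separate, and the day 0 values overlapped. In 5 of the 6 day 0 libraries, all but VD3 replicate 2, they lay under the median of the receptor genes. The VD3 effect on Slpi was 3.27 on osteogenic day 7 and 0.03 at day 0, an interaction of 3.24 ± 0.39 (SE, limma adjusted p = 3.37e-05).

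Dio2, the deiodinase that activates thyroid hormone inside cells, reached 188, 191 and 201 RPKM with VD3 on osteogenic day 7, against 27.5, 22.8 and 25.1 RPKM with vehicle. Day 0 cells had 8.37, 5.77 and 8.64 RPKM with VD3 and 3.87, 3.79 and 3.81 RPKM with vehicle. VD3 libraries were above vehicle libraries in both states, and Dio2 rose by 2.90 on osteogenic day 7 and by 0.81 at day 0. Its interaction was 2.08 ± 0.21 (limma adjusted p = 4.37e-06). The day 0 vehicle values were close to the receptor background of those libraries, and with that background subtracted the interaction was 0.50 and no longer called (limma adjusted p = 0.222).

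Cyp24a1, the enzyme that breaks down VD3, had 23.2, 18.6 and 17.6 RPKM with VD3 on osteogenic day 7, against 0.146, 0 and 0.181 RPKM with vehicle. At day 0 the values were 13.1, 12.4 and 13.6 RPKM with VD3 and 1.79, 2.19 and 0.894 RPKM with vehicle. The VD3 libraries of both states thus lay between 12.4 and 23.2 RPKM, while the vehicle level was lower on osteogenic day 7. Cyp24a1 rose by 4.22 on osteogenic day 7 and by 2.45 at day 0, with an interaction of 1.77 ± 0.27 (limma adjusted p = 0.000614). Its day 0 vehicle values lay under the receptor background, and the call ended after background subtraction (0.85, adjusted p = 0.162) and with quantile normalization (0.67, adjusted p = 0.239).

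Adamts1, a secreted protease that cleaves versican and aggrecan, had 217, 239 and 309 RPKM with VD3 on osteogenic day 7, against 120.2, 122 and 117 RPKM with vehicle. In day 0 cells it had 55.2, 60.6 and 57.0 RPKM with VD3 and 54.7, 57.2 and 62.1 RPKM with vehicle. The day 7 groups were apart and the day 0 groups overlapped, at levels well over the background. Its interaction was 1.08 ± 0.15 (limma adjusted p = 0.000184). Fam20c, the kinase that phosphorylates secreted matrix proteins, averaged 26.7 ± 1.04 RPKM with VD3 and 14.2 ± 2.82 with vehicle on osteogenic day 7, and 7.10 ± 0.361 and 7.09 ± 1.48 at day 0 (SD, n = 3 each). Its interaction of 0.87 (limma adjusted p = 0.0183) was called in 9 of 12 fits that each left out 1 library, reached adjusted p = 0.0630 without osteogenic day 7 vehicle replicate 2, and was called neither after background subtraction (0.37, adjusted p = 0.665) nor with quantile normalization (0.62, adjusted p = 0.215). Lrp6, a Wnt co-receptor, averaged 73.7 ± 7.33 and 53.6 ± 3.10 RPKM on osteogenic day 7, and 69.7 ± 7.04 and 75.1 ± 5.25 at day 0, VD3 before vehicle in each state. Lrp6 was called in 6 of those 12 fits (0.56, limma adjusted p = 0.0332), its highest adjusted p was 0.0870, without osteogenic day 7 vehicle replicate 2, and it was not called after background subtraction (0.54, adjusted p = 0.0539). Kitl (stem cell factor), chosen after its values were seen, had 37.6, 40.8 and 32.9 RPKM with VD3 and 18.1, 18.6 and 19.3 RPKM with vehicle on osteogenic day 7, and 82.6, 84.2 and 86.0 RPKM with VD3 and 85.8, 84.5 and 78.9 RPKM with vehicle at day 0. Its groups were apart on osteogenic day 7 only, below the day 0 level (interaction 0.93 ± 0.11, adjusted p = 1.99e-05).

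**Figure D2:**
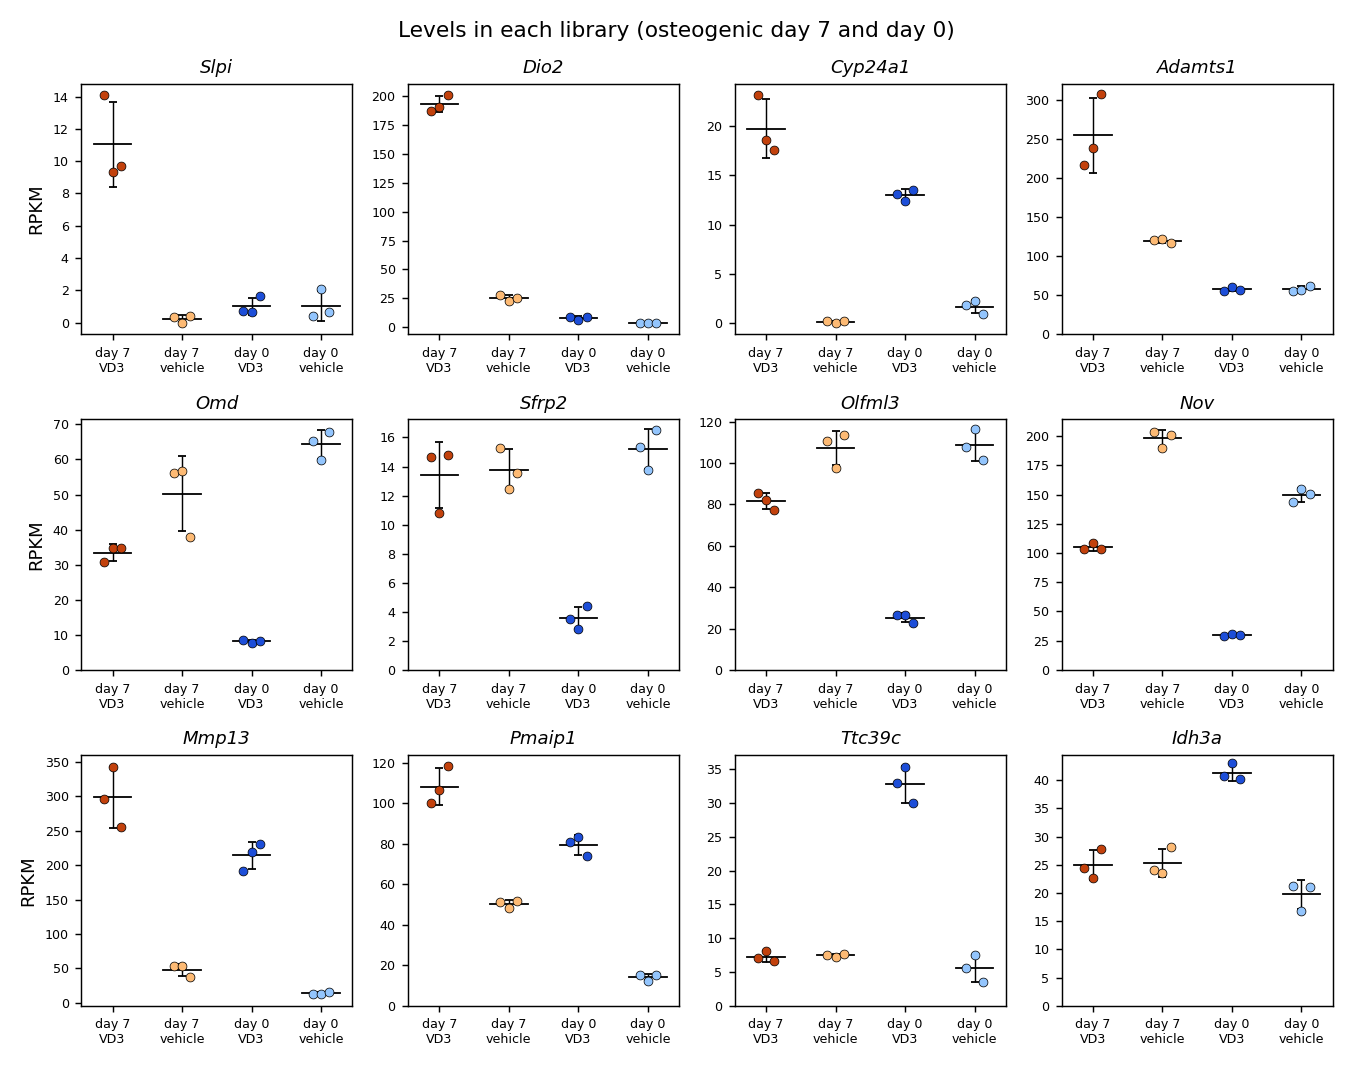
RPKM of 12 named genes in each of the 12 libraries: points are libraries, horizontal bars group means and whiskers SD (n = 3), with VD3 left of vehicle in each state and linear axes from 0. Slpi and Adamts1 separate by treatment on day 7 only, Sfrp2, Ttc39c and Idh3a at day 0 only, and Dio2, Cyp24a1, Omd, Olfml3, Nov, Mmp13 and Pmaip1 in both states.

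The larger group of higher genes fell with VD3 at day 0 and fell less, or was not called, on osteogenic day 7. Omd (osteomodulin), a small leucine-rich proteoglycan that binds collagen in mineralizing bone matrix, led it. Osteogenic day 7 libraries had 30.7, 34.8 and 34.8 RPKM with VD3, against 56.2, 56.7 and 38.0 RPKM with vehicle. Day 0 libraries had 8.40, 7.70 and 8.26 RPKM with VD3, against 65.3, 59.7 and 67.7 RPKM with vehicle. The groups did not overlap in either state, but the gap at day 0 was far wider. Omd fell by 0.55 on osteogenic day 7 and by 2.84 at day 0, an interaction of 2.28 ± 0.21 (limma adjusted p = 1.62e-06).

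To show what lies at the start of genes of the 3 patterns, the RefSeq promoters (250 bases before to 50 after the start, GRCm38.p6, another build than that of the deposited values) of Omd (chr13:49582212-49582511, + strand), Dio2 (chr12:90738989-90739288, - strand) and Mmp13 (chr9:7272264-7272563, + strand) are printed 5′ to 3′. Omd fell less on osteogenic day 7, Dio2 rose more, and Mmp13, described further on, rose more at day 0. Capitals mark matches to the receptor's hexamers AGGTCA or GGTTCA on either strand.
Omd: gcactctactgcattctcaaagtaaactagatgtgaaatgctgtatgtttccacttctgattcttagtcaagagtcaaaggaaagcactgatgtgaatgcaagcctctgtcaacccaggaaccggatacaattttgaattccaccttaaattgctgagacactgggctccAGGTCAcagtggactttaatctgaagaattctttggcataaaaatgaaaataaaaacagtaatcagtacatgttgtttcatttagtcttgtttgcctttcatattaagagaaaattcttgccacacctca
Dio2: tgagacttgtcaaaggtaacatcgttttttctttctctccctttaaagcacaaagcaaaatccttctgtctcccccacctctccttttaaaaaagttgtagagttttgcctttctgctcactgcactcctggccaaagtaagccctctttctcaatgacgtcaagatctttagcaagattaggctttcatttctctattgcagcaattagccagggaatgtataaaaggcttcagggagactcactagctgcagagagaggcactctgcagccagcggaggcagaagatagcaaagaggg
Mmp13: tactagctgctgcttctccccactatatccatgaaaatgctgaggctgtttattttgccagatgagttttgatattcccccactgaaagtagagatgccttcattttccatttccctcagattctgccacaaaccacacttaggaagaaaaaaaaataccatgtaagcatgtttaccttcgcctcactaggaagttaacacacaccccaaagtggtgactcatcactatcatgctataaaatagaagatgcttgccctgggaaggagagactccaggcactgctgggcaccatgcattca
The Omd window held 1 match, starting at -80 from the start site, and the other 2 windows held none. Over all 32851 promoters of the RefSeq table, 24.8% held at least 1 such hexamer, as did 19.5% of 5490 promoters of genes of at least 10 RPKM. Among called genes the share was 13.7% of 146 promoters (116 of 172 higher genes matched) and 16.2% of 117 (90 of 143 lower genes matched). A direct repeat of the hexamers with 3 bases between occurred in 5 promoters of the table, 1 of a gene of at least 10 RPKM, and in 0 promoters of called genes. A match is a run of letters and not a bound site, and windows of this length do not show more distant sites.

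Sfrp2, a secreted Wnt modulator, had 14.7, 10.8 and 14.8 RPKM with VD3 on osteogenic day 7, against 15.3, 12.5 and 13.6 RPKM with vehicle. At day 0 it had 3.54, 2.85 and 4.38 RPKM with VD3, against 15.3, 13.8 and 16.5 RPKM with vehicle. Vehicle cells of both states and day 7 cells with VD3 shared 1 range, and only the day 0 VD3 libraries were low (interaction 1.78 ± 0.18, limma adjusted p = 4.37e-06). Wisp2 (CCN5), a CCN protein without the C-terminal domain of its family, was also lowest in the day 0 VD3 libraries, but its day 0 vehicle libraries lay below all day 7 libraries. Its levels were 97.4, 107 and 124 RPKM with VD3 and 112, 99.4 and 120.2 RPKM with vehicle on osteogenic day 7, and 24.4, 32.9 and 28.0 RPKM with VD3 and 87.3, 89.3 and 86.7 RPKM with vehicle at day 0. Its interaction was 1.59 ± 0.17 (limma adjusted p = 8.42e-06).

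Olfml3, a secreted olfactomedin-domain protein, and Nov (CCN3), another CCN protein, fell in both states and more at day 0. Olfml3 had 85.5, 82.1 and 77.4 RPKM with VD3 on osteogenic day 7, against 110.5, 97.7 and 114 RPKM with vehicle, and at day 0 26.3, 26.6 and 22.8 RPKM with VD3, against 108, 116 and 101.5 RPKM with vehicle. Nov had 104, 109 and 103 RPKM with VD3 on osteogenic day 7, against 204, 189 and 201 RPKM with vehicle. The day 0 values of Nov were 29.4, 31.0 and 29.9 RPKM with VD3, against 143, 155 and 151 RPKM with vehicle. In all 4 pairs of groups the VD3 libraries were below every vehicle library. The interactions were 1.67 ± 0.14 for Olfml3 (limma adjusted p = 3.92e-07) and 1.37 ± 0.11 for Nov (2.64e-07).

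Alpl, a phosphatase that frees phosphate for mineral, averaged at least 10 RPKM on osteogenic day 7 and under it at day 0. Outside the comparison, its means on adipogenic day 7 were 18.9 RPKM with VD3 and 17.3 with vehicle. It had 22.4, 17.8 and 23.1 RPKM with VD3 and 17.3, 15.7 and 21.3 RPKM with vehicle on osteogenic day 7, and these ranges overlapped. At day 0 its 1.55, 1.22 and 1.78 RPKM with VD3 stood against 4.31, 5.80 and 6.19 RPKM with vehicle. The interaction was 1.56 ± 0.22 (limma adjusted p = 0.000274), with day 0 vehicle levels near the receptor background, and it was not called after background subtraction (0.96, adjusted p = 0.202). Among the other genes with a large fall at day 0 was Ppp1r3c, a glycogen-targeting subunit of protein phosphatase 1. It averaged 1.69 ± 0.870 with VD3 and 1.78 ± 1.06 RPKM with vehicle on osteogenic day 7, and 3.40 ± 1.04 and 14.9 ± 0.692 at day 0. Gprin3 averaged 1.43 ± 0.307 and 1.43 ± 0.377 RPKM on osteogenic day 7, and 4.84 ± 1.06 and 19.02 ± 0.632 at day 0, and Kctd12, an auxiliary subunit of GABA-B receptors, 6.14 ± 0.278 and 5.34 ± 0.240, and 4.38 ± 0.547 and 14.4 ± 0.260 (VD3 before vehicle, SD, n = 3 each). Among the 4 groups compared, these 3 genes averaged over 10 RPKM with day 0 vehicle only, and their interactions were 1.86, 1.80 and 1.70 (limma adjusted p = 0.00169, 0.000264 and 1.62e-06). With vehicle on osteogenic day 7, Ppp1r3c and Gprin3 were too low to fall as far on this scale as at day 0. Their positive interactions therefore do not show a different response to VD3. The call of Ppp1r3c ended when the 12 compared libraries were fitted alone (adjusted p = 0.0527).

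Most lower interactions were of genes that VD3 raised more at day 0. Ttc39c had 7.06, 8.16 and 6.61 RPKM with VD3 on osteogenic day 7, against 7.51, 7.20 and 7.71 RPKM with vehicle. At day 0 it reached 32.9, 35.4 and 29.9 RPKM with VD3, against 5.64, 7.46 and 3.47 RPKM with vehicle. Only the day 0 VD3 libraries stood out, and the interaction was -2.45 ± 0.24 (limma adjusted p = 3.79e-06), the largest of the named lower genes. Mmp13, the collagenase of cartilage and bone remodelling, was induced in both states. With VD3 on osteogenic day 7 it had 296, 343 and 255 RPKM, against 52.9, 52.9 and 38.2 RPKM with vehicle, and with VD3 at day 0 192, 219 and 231 RPKM, against 13.6, 12.4 and 15.2 RPKM with vehicle. Mmp13 rose by 2.62 on osteogenic day 7 and by 3.87 at day 0 (interaction -1.25 ± 0.17, limma adjusted p = 0.00016).

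Pmaip1 (Noxa), a BH3-only protein of the apoptosis pathway, likewise rose in both states, and its vehicle level was lower at day 0. It had 100.1, 106 and 118 RPKM with VD3 and 51.1, 48.2 and 52.0 RPKM with vehicle on osteogenic day 7. At day 0 it had 80.9, 83.2 and 73.9 RPKM with VD3 and 15.4, 12.5 and 15.0 RPKM with vehicle. VD3 libraries were above all vehicle libraries of their state (interaction -1.31 ± 0.16, limma adjusted p = 3.24e-05). Cib2, a calcium- and integrin-binding protein, had 5.54, 7.50 and 3.76 RPKM with VD3 and 0.725, 0.935 and 0.462 RPKM with vehicle on osteogenic day 7, and 37.6, 31.7 and 34.3 RPKM with VD3 and 2.72, 1.96 and 2.48 RPKM with vehicle at day 0. The day 0 VD3 level of Cib2 was the highest of the 4 groups, but its interaction of -1.48 (limma adjusted p = 0.00692) was not called with a pseudocount of 0.1 (-1.001, adjusted p = 0.290).

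Most other large lower genes rose at day 0 with no call on osteogenic day 7. Idh3a, a subunit of the citrate cycle enzyme isocitrate dehydrogenase, had 24.4, 22.6 and 27.9 RPKM with VD3 and 24.1, 23.5 and 28.1 RPKM with vehicle on osteogenic day 7, which overlapped. Its day 0 values were 40.8, 43.1 and 40.3 RPKM with VD3 and 21.3, 16.9 and 21.1 RPKM with vehicle (interaction -1.05 ± 0.14, limma adjusted p = 8.47e-05). The same form was seen for Emp2, a tetraspan membrane protein (-1.21), Ap1s2, a clathrin adaptor subunit (-1.15), Tmx3, a thioredoxin-related protein of the endoplasmic reticulum (-1.07), Timm8a1, a chaperone of mitochondrial import (-1.01), and the laminin-binding integrin Itga6 (-0.97). Their limma adjusted p-values were 0.000279, 0.0153, 0.000145, 0.000362 and 0.000719. Ap1s2 reached adjusted p = 0.0505 without osteogenic day 7 vehicle replicate 2, while the other 4 of these and Idh3a were called in all 12 fits that left out 1 library. Dapk2, a death-associated kinase, rose in both states and more at day 0 (-0.99, adjusted p = 0.0476), but was called in 3 of those fits, with 0.115 without osteogenic day 7 vehicle replicate 1.

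Collagen and matrix genes differed in both directions. Of 27 genes of at least 10 RPKM, 8 were higher and 3 lower, with a median interaction of 0.48, against 0.0005 over all genes past the limit. Over all genes past the limit 2.53% were called higher and 2.1% lower, and the counts of lists stand beside these shares with no test, since the lists were chosen with earlier results of these data known. Col6a1 and Col6a2, chains of type VI collagen, fell in both states and more at day 0. Col6a2 had 92.6, 91.1 and 84.3 RPKM with VD3 and 128, 117 and 139.9 RPKM with vehicle on osteogenic day 7, and 15.8, 14.6 and 14.8 RPKM with VD3 and 67.2, 67.5 and 63.2 RPKM with vehicle at day 0. Col6a1 had 186, 188 and 192 RPKM with VD3 and 277, 289.7 and 252 RPKM with vehicle on osteogenic day 7, and 59.7, 73.1 and 65.9 RPKM with VD3 and 218, 226 and 234 RPKM with vehicle at day 0. No groups overlapped within a state, and the interactions were 1.54 ± 0.13 and 1.23 ± 0.12 (limma adjusted p = 5.38e-07 and 3.79e-06). Aspn (asporin), a small leucine-rich proteoglycan, averaged 29.4 ± 6.83 RPKM with VD3 and 48.0 ± 6.002 with vehicle on osteogenic day 7, and 4.49 ± 0.926 with VD3 and 22.2 ± 2.95 with vehicle at day 0 (interaction 1.38, adjusted p = 0.00169). Postn (periostin) averaged 75.4 ± 9.24 and 118 ± 7.87 RPKM, and 89.6 ± 13.005 and 261 ± 8.93 RPKM, in the same order (0.89, adjusted p = 0.000751). The other higher members were Col6a3 (0.48), Col12a1 (0.69), the crosslinking enzyme Lox (0.67) and Thbs2 (0.64). The 3 lower members were Col3a1 (-0.85), Col8a1 (-0.69) and Thbs1 (-0.47). Col6a3 and Thbs1 were each called in 6 of 12 fits that left out 1 library. Col3a1, the main chain of type III collagen, averaged 789.9 ± 69.7 RPKM with VD3 and 813 ± 95.6 with vehicle on osteogenic day 7, and 361 ± 33.0 and 205 ± 7.64 at day 0, where it rose. The type I collagen genes Col1a1 and Col1a2 had interactions of -0.16 and -0.05 (adjusted p = 0.609 and 0.828).

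Of 17 matrix proteases and inhibitors, 2 were higher (Adamts1 and Mmp2) and 3 lower (Mmp13, Plau and Timp3), with a median of 0.25. All genes past the limit had 2.53% higher and 2.1% lower, with a median of 0.0005. Mmp2, gelatinase A, had 50.4, 35.0 and 32.4 RPKM with VD3 and 26.7, 24.9 and 34.6 RPKM with vehicle on osteogenic day 7, which overlapped. At day 0 it had 11.1, 10.9 and 11.8 RPKM with VD3 and 18.6, 19.2 and 14.6 RPKM with vehicle, a fall (interaction 1.00, limma adjusted p = 0.00768), and with the 12 compared libraries alone the call ended (0.0787). Plau, the urokinase that activates plasminogen, fell in both states and more on osteogenic day 7. Its values were 12.7, 13.7 and 11.2 RPKM with VD3 and 38.2, 30.5 and 38.1 RPKM with vehicle on osteogenic day 7, and 12.3, 13.1 and 12.8 RPKM with VD3 and 18.5, 19.5 and 21.5 RPKM with vehicle at day 0. The VD3 libraries of both states thus shared a narrow range, and the interaction was -0.83 ± 0.14 (limma adjusted p = 0.00128). Timp3, an inhibitor of metalloproteinases, averaged 102 ± 5.03 RPKM with VD3 and 191 ± 10.9 with vehicle on osteogenic day 7, and 21.8 ± 1.64 and 25.6 ± 1.90 at day 0 (-0.67, adjusted p = 0.00389).

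**Figure D3:**
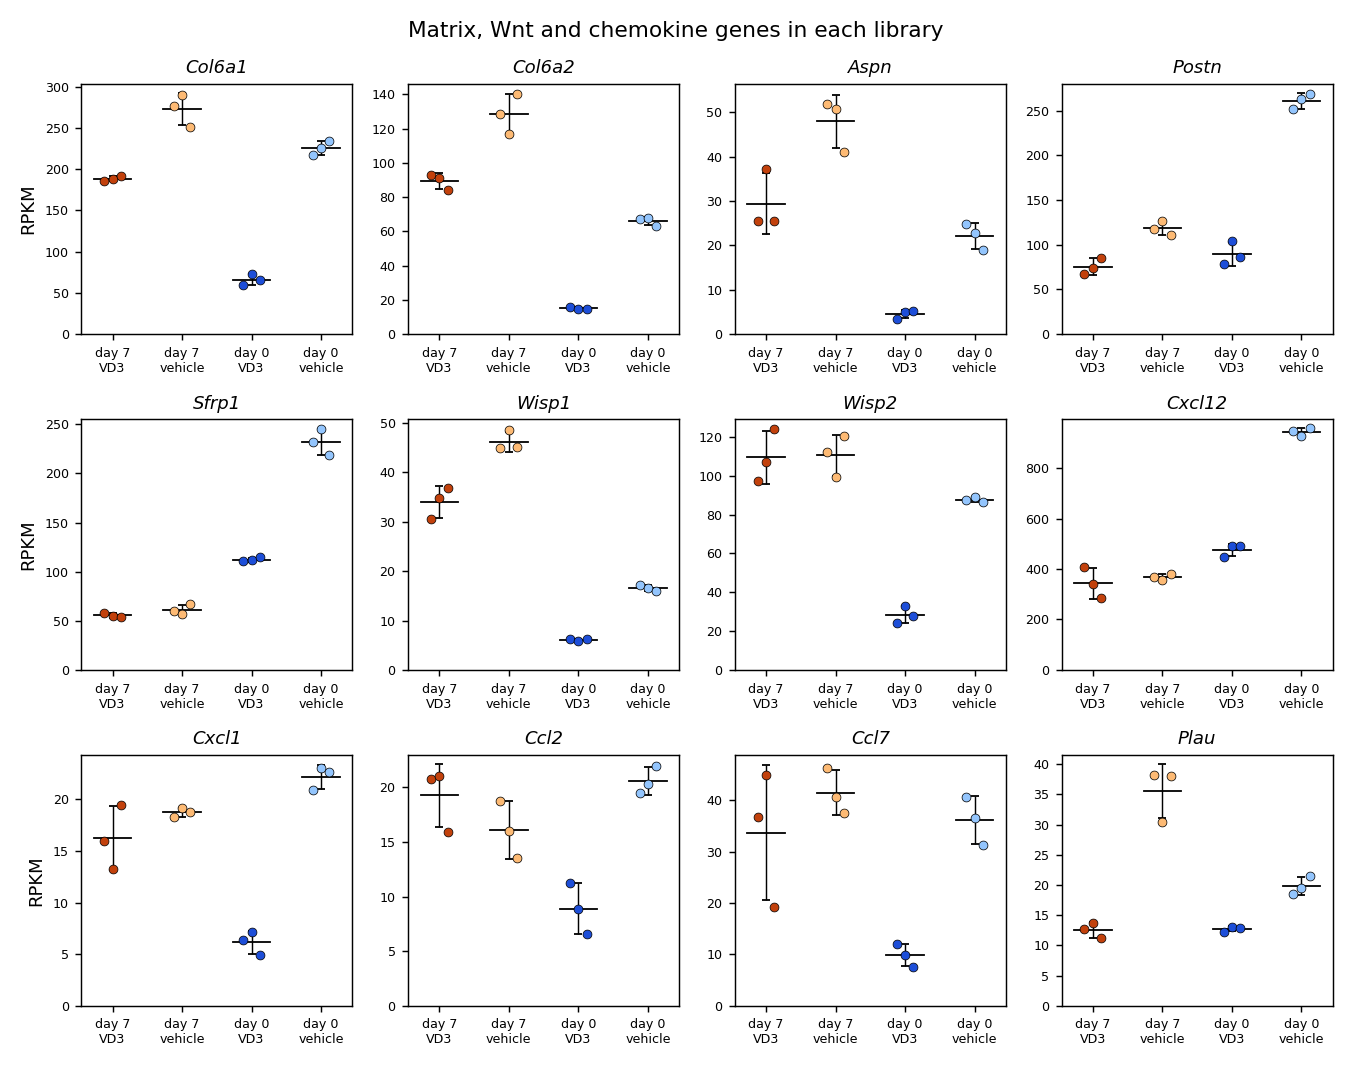
RPKM of 12 genes of matrix, Wnt, CCN and chemokine groups in each of the 12 libraries: points are libraries, bars means and whiskers SD (n = 3), with VD3 left of vehicle in each state and linear axes from 0. At day 0 the VD3 libraries lie below every vehicle library for the genes shown, and Plau shows its wider gap on day 7. The genes were chosen among those called by the interaction, which uses these day 0 values, so separation was favoured. The share of separated genes over all genes past the limit was not counted.

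Wnt pathway genes of at least 10 RPKM had 6 of 15 higher and 0 lower, beside 2.53% and 2.1% of all genes past the limit. Their median was 0.40, against 0.0005 over those genes. The 6 were Sfrp2, Wisp2, Sfrp1, Wisp1, Fzd1 and Lrp6. Sfrp1, a secreted Wnt inhibitor, had 58.5, 55.1 and 53.6 RPKM with VD3 and 59.6, 57.3 and 67.2 RPKM with vehicle on osteogenic day 7, and 111, 112 and 115 RPKM with VD3 and 232, 245 and 219 RPKM with vehicle at day 0. Wisp1 (CCN4), a Wnt-induced CCN protein, had 30.5, 34.8 and 36.8 RPKM with VD3 and 44.9, 48.6 and 45.1 RPKM with vehicle on osteogenic day 7, and 6.24, 5.91 and 6.25 RPKM with VD3 and 17.1, 16.6 and 16.0 RPKM with vehicle at day 0. Both fell at day 0, and Wisp1 also on osteogenic day 7, with interactions of 0.90 and 0.87 (limma adjusted p = 0.000374 and 4.74e-05). The receptor Fzd1 averaged 73.8 ± 2.48 and 70.3 ± 4.07 RPKM on osteogenic day 7 and 27.5 ± 1.06 and 45.4 ± 0.989 at day 0, VD3 before vehicle (0.77, adjusted p = 0.000401). The set mixes pathway activators (Lrp6, Fzd1) with secreted inhibitors (Sfrp1, Sfrp2) and Wnt-responsive genes.

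Cytokine and chemokine genes had 6 of 8 members of at least 10 RPKM higher and 0 lower, beside 2.53% and 2.1% of all genes past the limit, with a median of 1.03. All 6 fell at day 0, and 1 of them, Il1rn, also fell on osteogenic day 7. Cxcl1, a neutrophil chemoattractant, had 16.0, 13.3 and 19.5 RPKM with VD3 and 18.3, 19.1 and 18.8 RPKM with vehicle on osteogenic day 7, and 6.37, 7.15 and 4.91 RPKM with VD3 and 20.9, 23.1 and 22.6 RPKM with vehicle at day 0 (interaction 1.50 ± 0.25, limma adjusted p = 0.00131). The monocyte chemoattractant Ccl2 had 20.8, 21.1 and 15.9 RPKM with VD3 and 18.8, 16.0 and 13.5 RPKM with vehicle on osteogenic day 7, and 11.3, 8.83 and 6.57 RPKM with VD3 and 19.5, 20.3 and 21.9 RPKM with vehicle at day 0. For both genes the treatment groups overlapped on osteogenic day 7 and were apart at day 0. Ccl7, a related chemokine, averaged 33.7 ± 13.1 and 41.5 ± 4.44 RPKM on osteogenic day 7 and 9.88 ± 2.20 and 36.2 ± 4.65 at day 0, VD3 before vehicle. Ccl2 and Ccl7 had interactions of 1.40 and 1.42 (adjusted p = 0.0183 and 0.0175), and their calls ended without osteogenic day 7 VD3 replicate 1 (0.0523 and 0.0547). Ccl2 was also not called after background subtraction (1.60, adjusted p = 0.0513). Cxcl12, which retains blood stem cells in marrow, had 407, 342 and 284 RPKM with VD3 and 369.9, 356 and 379 RPKM with vehicle on osteogenic day 7, and 449, 491 and 491 RPKM with VD3 and 946, 926 and 957 RPKM with vehicle at day 0 (0.87, adjusted p = 0.00343). Il1rn, the interleukin-1 receptor antagonist, averaged 6.11 ± 1.45 and 13.2 ± 2.07 RPKM on osteogenic day 7 and 23.8 ± 2.78 and 105 ± 8.19 at day 0, VD3 before vehicle (1.10, adjusted p = 0.0232). It was called in 8 of 12 fits that left out 1 library and reached adjusted p = 0.0758 without osteogenic day 7 VD3 replicate 1. The sixth was Il1rl1, the receptor of interleukin-33 (0.96, adjusted p = 0.0036). Csf1 and Il33 were not called (0.22 and -0.30).

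In the BMP and TGF-beta list, 2 of 20 genes were higher (Ctgf and Inhba) and 2 lower (Fst and Tgfbr2), with a median of 0.18. The shares of all genes past the limit were 2.53% higher and 2.1% lower, with a median of 0.0005. Tgfbr2, the type II TGF-beta receptor, had 45.6, 45.4 and 37.4 RPKM with VD3 and 39.7, 36.3 and 38.4 RPKM with vehicle on osteogenic day 7, and 39.8, 38.9 and 37.0 RPKM with VD3 and 21.5, 21.5 and 17.6 RPKM with vehicle at day 0. Only its day 0 vehicle libraries were low (interaction -0.75 ± 0.14, limma adjusted p = 0.00343). Inhba, the activin A subunit, averaged 41.6 ± 8.56 and 53.6 ± 6.47 RPKM on osteogenic day 7 and 10.2 ± 0.594 and 24.4 ± 1.37 at day 0, and its inhibitor Fst (follistatin) 10.5 ± 0.925 and 6.74 ± 1.82, and 30.3 ± 0.914 and 9.81 ± 0.936, VD3 before vehicle in each pair. Their interactions had opposite signs, 0.81 for Inhba and -0.94 for Fst (adjusted p = 0.0397 and 0.0420). Each was called in 2 of 12 fits that left out 1 library, with a highest adjusted p of 0.103 without osteogenic day 7 vehicle replicate 1 for Inhba and 0.120 without replicate 2 of that group for Fst. Ctgf (CCN2) was at 0.59 (adjusted p = 0.0261), called in 8 of those fits and at 0.0765 without osteogenic day 7 vehicle replicate 2.

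Of 13 osteoblast genes 2 were higher (Alpl and Omd) and 0 lower (median 0.17), and of 11 osteocyte, mineralization and phosphate genes 2 were higher (Alpl and Fam20c) and 0 lower (median 0.12), beside 2.53% and 2.1% of all genes past the limit. Ibsp (bone sialoprotein) averaged 89.1 ± 15.6 RPKM with VD3 and 264 ± 11.9 with vehicle on osteogenic day 7, and 1.60 ± 0.171 and 9.55 ± 0.514 at day 0. It fell in both states, with an interaction of 0.45 that was not called (limma adjusted p = 0.0969). Phex, a phosphate-regulating endopeptidase, averaged 11.1 ± 2.57 and 26.1 ± 3.91 RPKM on osteogenic day 7 and 2.42 ± 0.282 and 3.46 ± 0.829 at day 0, VD3 before vehicle (-0.80, adjusted p = 0.0791). Adipocyte genes had 2 of 10 higher, Plin4 and Scd1, and 0 lower (median 0.53). The desaturase Scd1 averaged 111 ± 8.65 and 111 ± 10.2 RPKM on osteogenic day 7 and 89.7 ± 2.19 and 136 ± 11.7 at day 0 (0.59, adjusted p = 0.0102, or 0.0867 with the 12 compared libraries alone). The lipid droplet protein Plin4 averaged 10.3 ± 1.99 and 13.1 ± 1.92 RPKM on osteogenic day 7 and 35.4 ± 2.77 and 69.3 ± 3.11 at day 0 (0.64, adjusted p = 0.0446). Plin4 was called in 3 of 12 fits that left out 1 library, with a highest adjusted p of 0.100 without osteogenic day 7 vehicle replicate 2, and was not called after background subtraction (0.64, 0.0753).

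Of 16 interferon-responsive genes, 0 were higher and 2 lower, beside 2.53% and 2.1% of all genes past the limit. Their median was -0.39, against 0.0005 over those genes. The 2 lower genes were the antiviral enzyme Rsad2 (viperin) and the RNA sensor Ifih1 (MDA5). Rsad2 averaged 1.92 ± 0.617 RPKM with VD3 and 2.79 ± 0.913 with vehicle on osteogenic day 7, and 18.1 ± 2.57 and 8.34 ± 1.70 at day 0. Ifih1 averaged 13.1 ± 0.486 and 12.7 ± 1.26 RPKM on osteogenic day 7, and 41.3 ± 2.85 and 24.9 ± 1.48 at day 0. Both rose at day 0 (interactions -1.41 and -0.67, limma adjusted p = 0.0369 and 0.0485). Neither call was steady: Rsad2 was called in 4 and Ifih1 in 2 of 12 fits that left out 1 library, with 0.105 and 0.127 without osteogenic day 7 vehicle replicate 2.

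Respiratory chain and citrate cycle genes had 0 higher and 1 lower of 20 (Idh3a, median -0.13), and glycolysis genes 0 higher and 1 lower of 17 (median -0.25), beside 4.63% of all genes past the limit called in either direction. That gene was Tpi1, triosephosphate isomerase, with 43.2, 40.5 and 36.3 RPKM with VD3 and 60.8, 54.7 and 56.5 RPKM with vehicle on osteogenic day 7, and 74.4, 75.4 and 72.1 RPKM with VD3 and 60.2, 61.8 and 69.7 RPKM with vehicle at day 0. It fell on osteogenic day 7 and was not called at day 0, although the day 0 groups did not overlap (-0.72, limma adjusted p = 0.0146). Cholesterol genes had 1 higher and 0 lower of 14 (median 0.03), while 11 fell on osteogenic day 7 and 10 at day 0, beside 6.05% and 10.9% of all genes past the limit. The called gene was Insig1, a sterol-responsive anchor of SREBP processing (0.50, adjusted p = 0.0359), called in 2 of 12 fits that left out 1 library and at 0.0894 without day 0 vehicle replicate 2.

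Several gene groups had no called interaction although VD3 moved them in both states. Of 23 cell cycle and replication genes of at least 10 RPKM, 18 fell on osteogenic day 7 and 21 at day 0, beside 6.05% and 10.9% of all genes past the limit, with 0 interactions called and a median of 0.14. Ccnb1 (cyclin B1) averaged 16.0 ± 1.74 RPKM with VD3 and 28.8 ± 1.26 with vehicle on osteogenic day 7, and 12.6 ± 1.07 and 25.3 ± 1.00 at day 0. Of 9 smooth muscle and pericyte genes, 6 fell on osteogenic day 7 and 8 at day 0, again with 0 interactions called (median 0.27). Lists of the IGF pathway (6 genes), the integrated stress response (11), granzymes and mast cell proteases (4) and abundant noncoding RNAs (7) also had 0 called. Over all genes past the limit 4.63% were called, 2.53% higher and 2.1% lower, so lists this short may hold 0. Of 6 immediate early genes 1 was higher, the transcription factor Klf4 (0.95, limma adjusted p = 0.0223), called in 6 of 12 fits that left out 1 library, at adjusted p = 0.0727 without osteogenic day 7 vehicle replicate 2, and not called after background subtraction (1.55, 0.0631). Of 6 stromal markers 2 were higher, Cxcl12 and Pdgfrb. Pdgfrb, a growth factor receptor of stromal cells and pericytes, averaged 61.2 ± 7.45 and 49.4 ± 4.16 RPKM on osteogenic day 7 and 41.8 ± 1.91 and 53.9 ± 1.89 at day 0 (0.66, adjusted p = 0.00343). Its call ended where each symbol was read from its largest transcript (adjusted p = 0.373) and with the 12 compared libraries alone (0.0511).

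**Figure D4:**
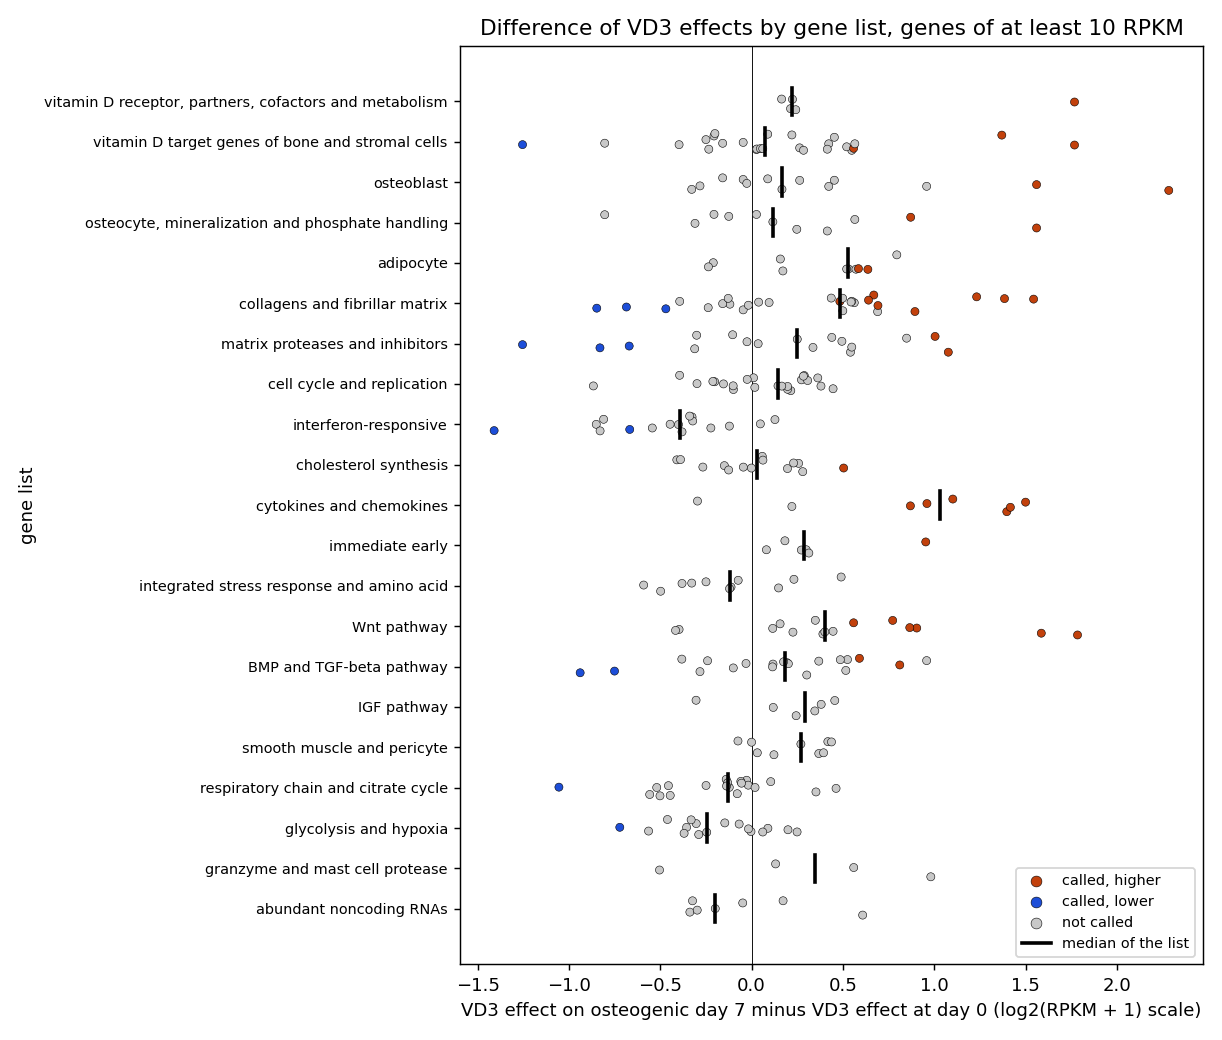
Interaction log2 value of each gene of at least 10 RPKM, by gene list: points are genes, coloured by call, and vertical ticks are list medians. Cytokine and chemokine genes have the highest list median (1.03), with 6 of 8 called higher, and cell cycle genes lie around 0 with none called.

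Of 5 genes of at least 10 RPKM in the list of the vitamin D receptor, its partners and metabolism 1 was higher, Cyp24a1 (median 0.22), and of 26 vitamin D target genes of bone and stromal cells 3 were higher (Cyp24a1, Lrp6 and Nov) and 1 lower, Mmp13 (median 0.07), beside 2.53% and 2.1% of all genes past the limit. Spp1 had 3232, 3260.4 and 3273 RPKM with VD3 and 1609.9, 1967 and 1388 RPKM with vehicle on osteogenic day 7, and 3405, 3769 and 3879 RPKM with VD3 and 2032, 1815 and 2067 RPKM with vehicle at day 0. It rose by 0.99 and 0.90, an interaction of 0.09 ± 0.14 (limma adjusted p = 0.690). Enpp1, which makes the mineralization inhibitor pyrophosphate, averaged 69.9 ± 6.76 and 34.5 ± 2.86 RPKM on osteogenic day 7 and 51.6 ± 6.15 and 25.8 ± 1.90 at day 0, and its interaction was 0.03 ± 0.18 (0.933). Vdr averaged 3.55 ± 1.09 and 1.18 ± 0.485 RPKM on osteogenic day 7 and 4.13 ± 0.254 and 2.46 ± 0.0407 at day 0 (0.49 ± 0.25, adjusted p = 0.235). Tnfsf11 averaged 2.81 ± 0.515 and 1.16 ± 0.692 RPKM, and 3.40 ± 1.07 and 1.84 ± 0.274 RPKM (0.25 ± 0.34, 0.632). Both are under the limit of 10 RPKM, their day 0 vehicle means were under the smell and taste receptor background there, and both signs turned with quantile normalization (-0.38 and -0.53). Lrp5, a Wnt co-receptor, was at -0.40 ± 0.20 (0.234) and became called after background subtraction (-1.55, 0.0478) and with quantile normalization (-1.07, 0.0340). The largest VD3 effects of any gene past the limit were on Inmt, a methyltransferase, at 76.6 ± 10.8 RPKM with VD3 and 1.37 ± 0.453 with vehicle on osteogenic day 7, and 143 ± 8.88 and 1.34 ± 0.585 at day 0, and its interaction of -0.92 was not called (adjusted p = 0.0867).

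By sign alone, called or not, the VD3 effects of 74 higher and 66 lower genes had opposite directions in the 2 states, and for 5 genes both effects were also called. Of the higher genes, 4 rose on osteogenic day 7 and fell at day 0 by call: Net1, Fnip2, Pdgfrb and LOC100504543. Net1 had 37.0, 34.6 and 43.8 RPKM with VD3 and 29.6, 26.9 and 33.0 RPKM with vehicle on osteogenic day 7, and 14.9, 17.0 and 17.1 RPKM with VD3 and 33.0, 34.4 and 34.9 RPKM with vehicle at day 0 (interaction 1.37 ± 0.13, limma adjusted p = 2.24e-06). The 1 lower gene of this kind was Nrp2, a co-receptor of semaphorins and vascular growth factors. It had 99.7, 96.8 and 103 RPKM with VD3 and 129.5, 123 and 141 RPKM with vehicle on osteogenic day 7, and 91.2, 95.7 and 87.5 RPKM with VD3 and 61.6, 64.7 and 63.1 RPKM with vehicle at day 0 (-0.92, adjusted p = 3.79e-06). For both genes the treatment groups were apart in each state.

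Of the 315 called genes 276 were found in the RefSeq gene order, and some were next to each other with no coding gene between. Col6a1 and Col6a2 on chromosome 10, Ccl2 and Ccl7 on chromosome 11 and Aspn and Omd on chromosome 13 were neighbours that were all higher, and Cib2 and Idh3a on chromosome 9 were neighbours that were both lower. Fgf2 (1.36) and Nudt6 (1.37) on chromosome 3 were both higher, but they overlap on opposite strands. Whether counting used strand is not given in the sources used here, so their values may share reads. Fgf2 was called in 1 of 12 fits that left out 1 library. Amd1 (-0.75) and Amd2 (-0.78) are near-identical copies whose reads may have been split. Lpin2 and Emilin2 were also both higher, and Akr1b3 and Akr1b8, like 4931406C07Rik and Taf1d, were both lower. Neighbours also differed: on chromosome 2 Fap was higher (1.10) and Ifih1 lower (-0.67), and Frmd4a higher (0.60) and Fam107b lower (-0.58). Thbs2 (0.64) and Smoc2 (-0.57) on chromosome 17 differed too, as did Hgf (0.77) and Cacna2d1 (-0.88) on chromosome 5. How often called genes would be neighbours was not tested.

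The same VD3 effects were read in the other 2 states of the study, in libraries that the interaction did not compare. The 172 higher genes had a median VD3 effect of -0.71 at day 0, 0.06 on osteogenic day 7, -0.05 on osteogenic day 15 and -0.09 on adipogenic day 7, beside -0.01, -0.003, -0.02 and 0.02 over all genes of at least 10 RPKM. For the 143 lower genes it was 0.71, 0.04, 0.004 and 0.20. The gap between day 0 and osteogenic day 7 follows from how the genes were chosen. VD3 raised 85 (1.25%) and lowered 49 (0.72%) genes of at least 10 RPKM on osteogenic day 15, and 246 (3.61%) and 104 (1.53%) on adipogenic day 7. Single genes varied. Dio2 rose on osteogenic day 15 (2.57, limma adjusted p = 6.56e-10) and was not called on adipogenic day 7 (0.25, 0.895), and Slpi likewise (1.84, 0.000493, and 0.35, 1.00). Omd was not called on osteogenic day 15 (-0.42, 0.458) and fell on adipogenic day 7 (-2.96, 1.71e-11), near its day 0 effect of -2.84, and Ttc39c was not called on osteogenic day 15 (-0.16, 1.00) and rose on adipogenic day 7 (2.15, 2.35e-08). Alpl and Olfml3 were not called in either (-0.29 and 0.13 for Alpl, -0.22 and -0.16 for Olfml3). Mmp13 rose on osteogenic day 15 (1.21) and fell on adipogenic day 7 (-0.59, adjusted p = 0.0057).

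**Figure D5:**
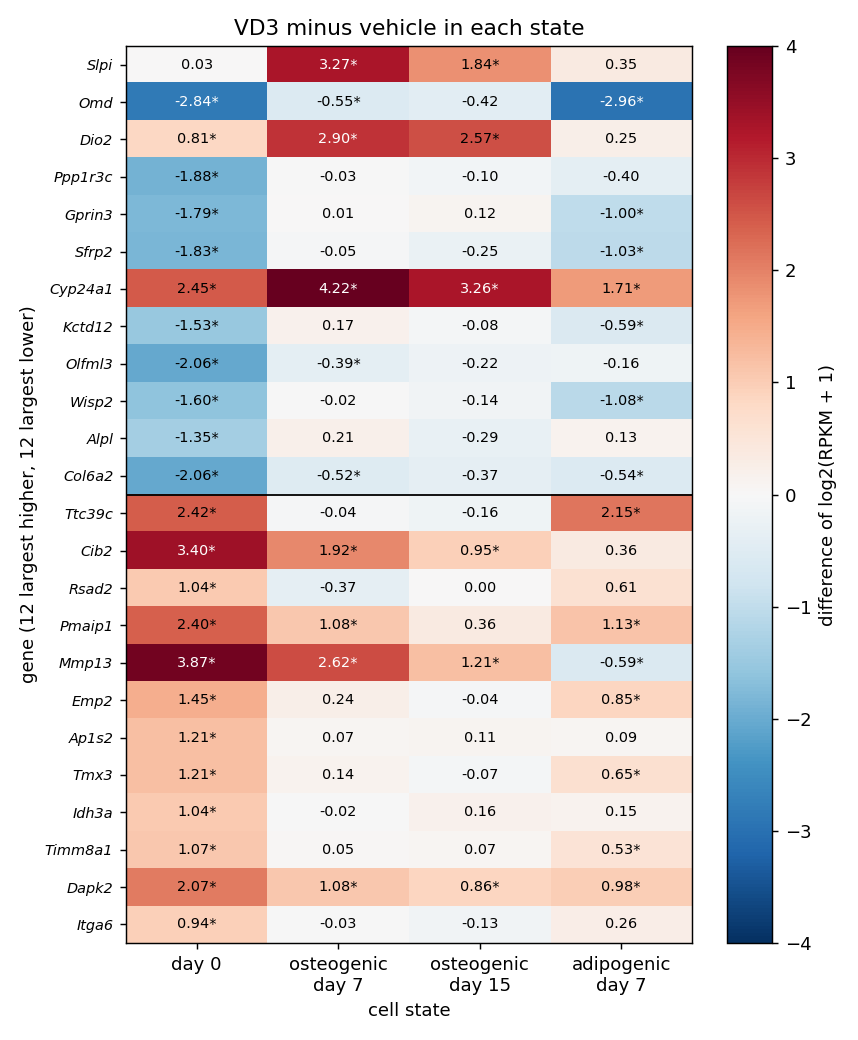
VD3 minus vehicle difference of log2(RPKM + 1) in each of the 4 states for the 12 largest higher genes (above the line) and the 12 largest lower genes (below it), with an asterisk where limma's adjusted p was under 0.05. Most of the higher genes are blue (lower with VD3) at day 0 and pale in both osteogenic states, and most of the lower genes are red (higher with VD3) at day 0.

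Among the 56 named genes 51 were called, and 36 of these were called in all 12 fits that left out 1 of the 12 libraries. Over all called genes of at least 10 RPKM, 86 of 172 higher and 58 of 143 lower genes were called in all 12 fits. Without day 0 VD3 replicate 2, 41 of the 51 were called. The 10 that were not are Rsad2, Dapk2, Fam20c, Plin4, Ifih1, Insig1, Il1rn, Klf4, Fst and Inhba, with log2 values of -1.36, -0.99, 0.83, 0.69, -0.63, 0.50, 1.01, 0.92, -0.94 and 0.83 in that fit. With the 12 compared libraries alone, the calls of Ppp1r3c, Rsad2, Ap1s2, Dapk2, Lrp6, Fam20c, Plin4, Scd1, Mmp2, Insig1, Ccl7, Klf4, Fst, Inhba, Ctgf and Pdgfrb ended, at limma adjusted p between 0.0511 (Pdgfrb) and 0.175 (Plin4). With a pseudocount of 0.1 those of Cib2, Rsad2, Dapk2, Plin4, Ifih1, Il1rn, Fst and Inhba ended, and with plain empirical Bayes those of Lrp6, Plin4, Ifih1, Insig1, Fst and Inhba. Without day 0 VD3 replicate 2, log2 values of genes with large interactions were close to those from all libraries. They were 3.13 for Slpi, 2.25 for Omd, 1.92 for Dio2, -2.40 for Ttc39c and -1.24 for Mmp13. Closeness was favoured in advance, since the fits share all other libraries. These genes were also picked for large interactions with the same sign in every fit that left out 1 library.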

How the data were processed

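Per the labels' protocols, directional ScriptSeq libraries were made from RNA that had been isolated in TRI-Reagent, precipitated by lithium chloride, cleared of DNA and passed through RiboMinus to remove rRNA. The authors deposited 1 RPKM value per transcript. TopHat and the mm9 build are named in the submitters' processing notes, while the quantification tool, its annotation and its use of strand are not given in the sources used here. RPKM is a share of the library, so a change in abundant RNAs moves all other genes. The RPKM values are not counts, so no count test was run. Depth was estimated from low receptor gene values, of which 98.0 to 100% fell within 0.1 of whole reads.

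Transcripts were summed by symbol over 3470 symbols with several transcripts, and 25 symbols turned into dates were left out, which gave 25385 genes. A gene was tested with at least 1 RPKM in at least 3 of the 24 libraries. limma (3.58.1, R 4.3.3; trend and robust, 16 residual degrees of freedom) was fitted to log2(RPKM + 1) over 8 groups, with Benjamini-Hochberg adjustment over all tested genes and a threshold of 0.05. Tables and figures used Python 3.11.15, numpy 2.4.6, pandas 2.3.3 and matplotlib 3.10.9. On simulated data with 200 changed genes among 21097, the interaction fit recovered 83% of 2-fold and 32% of 1.5-fold changes and called 5 unchanged genes. Past 10 RPKM it called 115 genes, 0 of them unchanged. The recovered genes were thus all past that level, and recovery of lower genes was not shown.

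Named were the 12 largest called genes in each direction (without predicted, Rik, small RNA and histone genes), up to 4 called members of each list, and Vdr, Cyp24a1, Spp1, Tnfsf11, Enpp1 and Lrp5. Other genes were named after their values were seen. Members, lists and tests were chosen with earlier results of these data known. Replicate numbers were checked for pairing; as not every same-numbered pair correlated above 0.1, the fit has no replicate block. Alternatives covered normalization, pseudocount, filter, transcript choice, background subtraction, the libraries fitted, a replicate block and leaving out each library.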

Additional observations from a re-analysis of the deposited data

Results flagged for a closer look

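The 51 named genes called by the interaction test are those whose VD3 effect differed between osteogenic day 7 and day 0, and that test is what brought each of them here. Values are interaction log2 differences, osteogenic day 7 minus day 0.

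Among genes with positive values, VD3 raised these on osteogenic day 7: Slpi (3.24), Dio2 (2.08), Cyp24a1 (1.77), Lrp6 (0.56), Fam20c (0.87), Adamts1 (1.08) and Pdgfrb (0.66). The genes with positive values that VD3 lowered at day 0, without a called rise on osteogenic day 7, were Omd (2.28), Ppp1r3c (1.86), Gprin3 (1.80), Sfrp2 (1.78), Kctd12 (1.70), Olfml3 (1.67), Wisp2 (1.59), Alpl (1.56), Col6a2 (1.54), Nov (1.37), Plin4 (0.64), Scd1 (0.59), Aspn (1.38), Col6a1 (1.23), Postn (0.89), Mmp2 (1.00), Insig1 (0.50), Cxcl1 (1.50), Ccl7 (1.42), Ccl2 (1.40), Il1rn (1.10), Klf4 (0.95), Sfrp1 (0.90), Wisp1 (0.87), Inhba (0.81), Ctgf (0.59) and Cxcl12 (0.87). Among genes with negative values, VD3 raised these at day 0: Ttc39c (-2.45), Cib2 (-1.48), Rsad2 (-1.41), Pmaip1 (-1.31), Mmp13 (-1.25), Emp2 (-1.21), Ap1s2 (-1.15), Tmx3 (-1.07), Idh3a (-1.05), Timm8a1 (-1.01), Dapk2 (-0.99), Itga6 (-0.97), Ifih1 (-0.67), Fst (-0.94) and Tgfbr2 (-0.75). The remaining genes with negative values, Plau (-0.83) and Tpi1 (-0.72), fell on osteogenic day 7.

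Groups of 3 libraries are too small for a test of a single outlying library, and none was made.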

How the results depend on the processing

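Genes of at least 10 RPKM are meant throughout, beside 172 higher and 143 lower as reported. A pseudocount of 0.1 gave 94 lower and 284 calls over all tested genes. Plain empirical Bayes gave 83 lower. A fit of the 12 libraries only gave 82 higher, 48 lower and 142 over all tested genes. Subtracting the receptor background gave 94 higher and 233 lower, 533 VD3 effects called on osteogenic day 7, and turned round 5 of the 172 higher genes. It moved the median interaction of all tested genes to -0.17, and quantile normalization moved it to -0.02, against 0.32.

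A limit on the mean of all 12 libraries, chosen after seeing the data, gave 147 higher and 137 lower. Leaving out 1 library at a time gave 105 to 325 higher and 64 to 219 lower genes, 247 to 2234 calls over all tested genes, 560 to 850 VD3 effects on osteogenic day 7 and 1043 to 1835 at day 0. Without day 0 VD3 replicate 2 the higher share was 64.8%, against 54.6%. Of 18 same-numbered pairs 8 correlated above 0.1 (range -0.24 to 0.54), so not every pair did and the numbers were not taken to pair the libraries. As a hint from the data that numbers may share something, 8 of 12 libraries correlated best with their own number. A fit with the replicate block called 143 higher and 113 lower genes, and did not call Inhba, Fst, Plin4 and Ifih1 (limma adjusted p = 0.0517, 0.0533, 0.0574 and 0.0598).

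Where each symbol was read from its largest transcript, 2 of the 172 called higher genes changed sign. Among the named genes, signs turned only for genes that were not called: Vdr (-0.38) and Tnfsf11 (-0.53) with quantile normalization, Enpp1 with background subtraction (-0.14) and over single libraries left out (-0.0707 to 0.10), and Spp1 over single libraries left out (-0.0309 to 0.22). Of the alternatives for named genes, 1078 kept direction and side of the threshold, 142 lost the call, 2 gained it and 8 changed sign. The causes were not tested. At day 0, low values near the receptor background cannot be told apart from it.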
